A study of Mus musculus with 6 samples.

Results

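Interferon beta, the 4 chains of the type I and type II interferon receptors and the 3 kinases bound to those chains were followed in mouse dendritic cells exposed to calcium hydroxide nanoparticles. These 8 genes (Ifnb1, Ifnar1, Ifnar2, Ifngr1, Ifngr2, Jak1, Jak2 and Tyk2) were taken by symbol from a table of 23398 genes, and each symbol matched 1 row. The cells were dendritic cells grown from mouse bone marrow in serum-supplemented DMEM. One group (3 libraries) received Ca(OH)2 nanoparticles and the other (3 libraries) received vehicle, both for 12 hours, and the design text asks how mRNA profiles differ with the treatment. Strain, sex and age of the mice, the dose of particles and the growth factors of the culture are not given in the sources used here. The labels also do not say whether the libraries of a group came from separate mice or cultures, so the p-values measure the spread between these libraries, which may be technical.

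Interferon beta is a secreted cytokine that many cells make after sensing microbial or misplaced nucleic acid or bacterial products. It binds a receptor of 2 chains, IFNAR1 and IFNAR2, on the same or neighbouring cells, while interferon gamma, made mainly by lymphocytes, binds IFNGR1 and IFNGR2. Each chain carries a Janus kinase: TYK2 sits on IFNAR1, JAK1 on IFNAR2 and IFNGR1, and JAK2 on IFNGR2. The activated kinases phosphorylate STAT proteins, and in dendritic cells the type I pathway is known for raising antigen presentation and costimulation.

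Values are FPKM, that is, reads per kilobase of exon on a scale shared by the 6 libraries, and each mean is given ± SD over n = 3 libraries. Levels can be compared between genes only roughly, because they depend on the exon lengths used. Depth was similar, with 17290973 to 21984885 recovered reads per library. Nanoparticle library 1 stood apart. Across the 10682 genes that reached 1 FPKM in 3 or more libraries, which are not independent replicates, its correlation with nanoparticle libraries 2 and 3 was 0.942 and 0.928, against 0.990 between those libraries and 0.993 to 0.994 between vehicle libraries. Results that rest on nanoparticle library 1 are therefore given with and without it. The dendritic cell marker Itgax was at 248 to 456 FPKM in every library, and the class II genes H2-Ab1 and Cd74 were above 494 FPKM. Flt3 stayed at or below 0.0793 FPKM, and macrophage genes such as Csf1r (133 to 175 FPKM) and Cd68 (294 to 589 FPKM) were also present. Of the plasmacytoid dendritic cell markers, which mark a cell type known for large interferon output, 2 of 8 reached 1 FPKM in 3 libraries. Their summed level ran from 3.25 to 4.57 FPKM in the vehicle group and from 3.99 to 5.25 FPKM in the nanoparticle group. Cox6a2 was the one called marker of that list, rising from 0.443 to 0.704 FPKM in the vehicle group to 1.45 to 3.60 FPKM (log2 change 1.12, limma adjusted p = 0.0127). Cd300c did not pass (log2 change -0.72, limma adjusted p = 0.110). Below the filter, Pacsin1 (0.608 to 0.763 FPKM in vehicle, 0.00939 to 0.294 FPKM with nanoparticles) and Spib (0.210 to 0.584 and 0 to 0.169 FPKM) were lower. Tcf4 was higher (0.764 to 0.873 and 0.975 to 1.38 FPKM), and Ccr9 and Klk1 overlapped between the groups. Siglech was at most 0.0149 FPKM in any library.

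Ifnb1 was the least abundant of the 8 genes and was detected mainly in nanoparticle libraries 2 and 3. Ifnb1 (ENSMUSG00000048806), a protein-coding gene, is encoded at 88522025 to 88522774 on chromosome 4, minus strand (GENCODE M21 on GRCm38). Vehicle library 1 held 5 reads (0.335 FPKM), and vehicle libraries 2 and 3 held 0 reads, which allows up to 0.202 and 0.192 FPKM at 3 reads. Nanoparticle libraries 1, 2 and 3 held 8, 43 and 53 reads, or 0.653, 3.46 and 3.67 FPKM. The groups did not overlap, but nanoparticle library 1 lay close to vehicle library 1, and their exact 95% Poisson intervals overlapped (3.45 to 15.8 against 1.62 to 11.7 reads). The means were 0.112 ± 0.193 FPKM (vehicle) and 2.60 ± 1.68 FPKM (nanoparticle).

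With 104 reads in the nanoparticle group and 5 in the vehicle group, the Ifnb1 ratio per unit of library scale was 24.2, with an exact 95% counting interval of 10.04 to 76.0. For nanoparticle library 1 alone the ratio to the vehicle libraries was 5.94 (1.71 to 23.1), and for libraries 2 and 3 it was 32.5 (13.5 to 102). Nanoparticle libraries 2 and 3 together exceeded library 1 by 5.47 times (2.67 to 13.03). These intervals cover counting error only and leave out the spread between libraries. Ifnb1 missed the filter on low values, because only 2 libraries reached 1 FPKM, so it was tested in the limma fit with no filter, in which 14.4% of 23398 genes passed an adjusted p of 0.05 (6.99% higher and 7.46% lower). Its change there was 1.56 on the log2(FPKM + 1) scale (SE 0.435, limma adjusted p = 0.0728, unadjusted p = 0.0125), which does not pass. Without nanoparticle library 1 the log2 change was 2.05 (limma adjusted p = 0.0036), and with a pseudocount of 0.1 it was 3.73 (limma adjusted p = 0.0379), so the call rests on that library and on the handling of low values. Over all 23398 genes, the groups did not overlap in 32.4%. A limma-voom fit on the recovered reads, an alternative chosen after seeing the data in which 23.9% of genes passed, gave Ifnb1 a log2 change of 4.87 and an adjusted p of 0.0566.

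**Figure D1:**
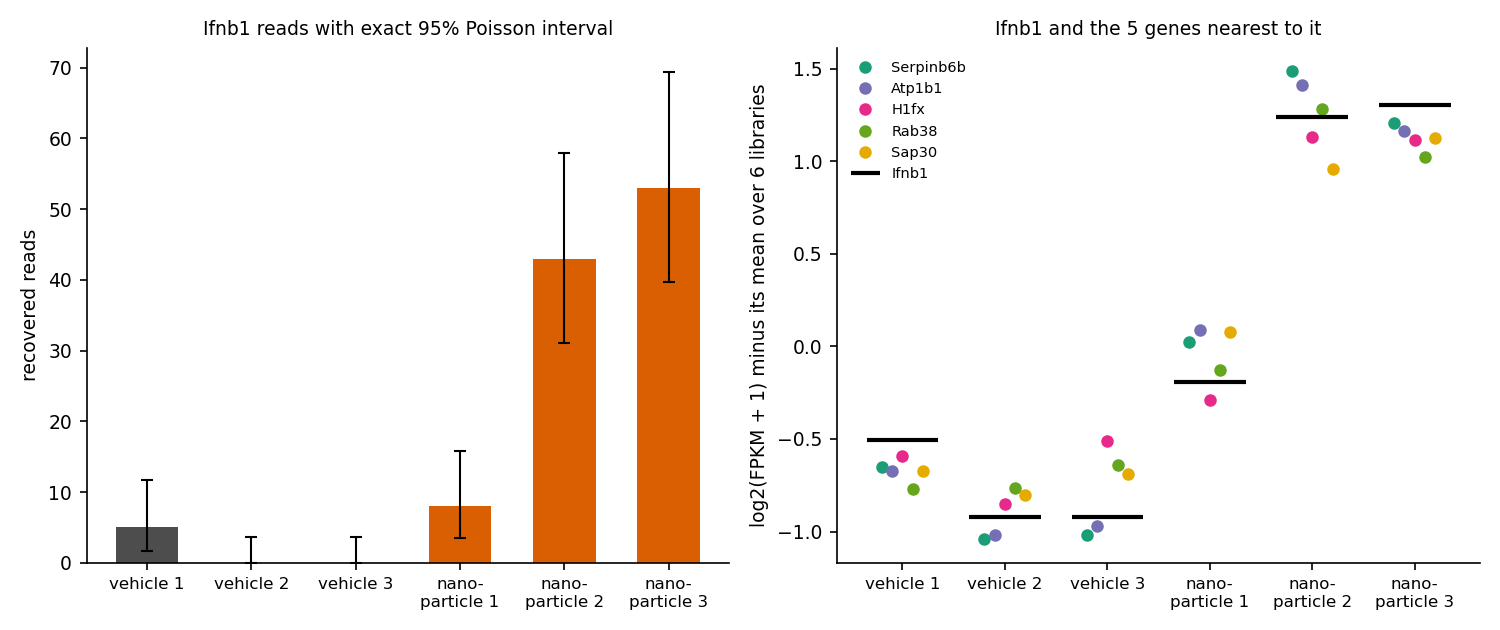
Left, recovered Ifnb1 reads in each library (bars) with exact 95% Poisson intervals (lines); right, log2(FPKM + 1) of Ifnb1 (black bars) and of the 5 genes with the most similar profile (points), each minus its own mean over the 6 libraries. Nanoparticle libraries 2 and 3 held 43 and 53 reads, while library 1 held 8 and vehicle library 1 held 5.

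Promoter sequence of Ifnb1 is shown because this gene had the largest fitted change of the 8, along with that of Ifngr2 and Ifnar2, which rose and also held a searched motif upstream of the start. The sequences are the 250 bases before the annotated start, 5′ to 3′ on the gene's strand, from RefSeq (GRCm38.p6), which gave 1 promoter for each of the 8 genes. Capitals mark a match to the kB motif of NF-kappaB or to TTCNNNGAA, the core of the gamma-activated sequence.
Ifnb1, chr4:88522795-88523044, minus strand: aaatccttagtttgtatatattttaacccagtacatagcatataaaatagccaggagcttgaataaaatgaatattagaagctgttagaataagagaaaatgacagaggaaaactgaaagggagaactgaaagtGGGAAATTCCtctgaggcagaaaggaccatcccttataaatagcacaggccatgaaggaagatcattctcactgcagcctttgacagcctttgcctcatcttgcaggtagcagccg
Ifngr2, chr16:91546809-91547058, plus strand: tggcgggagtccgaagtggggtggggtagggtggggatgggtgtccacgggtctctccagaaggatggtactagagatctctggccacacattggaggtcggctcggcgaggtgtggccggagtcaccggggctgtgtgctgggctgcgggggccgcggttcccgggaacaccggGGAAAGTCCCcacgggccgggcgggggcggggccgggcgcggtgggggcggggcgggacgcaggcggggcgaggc
Ifnar2, chr16:91372533-91372782, plus strand: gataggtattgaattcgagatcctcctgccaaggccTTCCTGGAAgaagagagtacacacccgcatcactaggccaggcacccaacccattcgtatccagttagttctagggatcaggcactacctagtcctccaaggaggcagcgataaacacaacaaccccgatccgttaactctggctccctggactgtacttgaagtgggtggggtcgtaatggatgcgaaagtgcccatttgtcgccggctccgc
Both strands were searched. The kB motif lay from -116 to -107 before the Ifnb1 start and from -75 to -66 before the Ifngr2 start (reverse strand), and 7.25% of 32851 promoter windows of this length held one. TTCNNNGAA lay from -214 to -206 before the Ifnar2 start, against 7.02% of the windows, and a further match in Ifnar1 ran from -5 across its start. TGACTCA, bound by AP-1, had no match in these windows of the 8 genes, and 4.46% of all windows held it. A match describes letters and not a bound site.

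Of the 7 genes that passed the filter, 5 changed at a limma adjusted p under 0.05, where 33.2% of the 10682 tested genes did. Ifnar1, Ifnar2, Ifngr2 and Jak2 rose (17.0% of tested genes were called higher), Ifngr1 fell (16.2% were called lower), and Jak1 and Tyk2 did not pass. The median log2 change of the 7 genes was 0.71, against -0.0010 for the whole tested set. The groups did not overlap in 5 of these 7 genes, and in 52.1% of all tested genes (25.9% with the nanoparticle group higher and 26.2% with it lower). Without nanoparticle library 1 the same 5 genes were called, where 64.8% of tested genes were (34.3% higher and 30.5% lower). In bulk RNA, fewer cells that express a gene and less RNA per cell cannot be told apart.

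Both chains of the type I interferon receptor rose, and the log2 change of Ifnar2 was the larger of the pair. Ifnar1, the chain that carries TYK2, is encoded at 91485238 to 91507441 on chromosome 16, plus strand. It was at 15.5, 14.3 and 15.4 FPKM in vehicle libraries 1 to 3 and at 25.5, 25.7 and 24.6 FPKM in nanoparticle libraries 1 to 3. All nanoparticle libraries lay above all vehicle libraries, and nanoparticle library 1 lay between the other two. The log2 change was 0.71 (SE 0.0899, limma adjusted p = 0.0019, 1.68 times the vehicle mean), supported by 1689 to 2814 reads per library.

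Ifnar2, the chain that carries JAK1 and holds the main docking sites for STAT2, is encoded at 91372783 to 91405589 on chromosome 16, plus strand. It was at 13.8, 12.7 and 12.2 FPKM in the vehicle libraries and at 42.2, 27.4 and 31.4 FPKM in nanoparticle libraries 1 to 3. Every nanoparticle library lay above every vehicle library, and library 1 was the highest. The log2 change was 1.30 (SE 0.170, limma adjusted p = 0.0021), and 1.13 without nanoparticle library 1 (limma adjusted p = 5.9e-05). Ifnar2 transcripts are known to encode both membrane and soluble forms, which a value per gene cannot separate. Its annotation shares 315 exonic bases with Gm21970 on the same strand, a gene the table does not list, and how reads there were assigned is not stated.

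The chains of the interferon gamma receptor went in opposite directions, the ligand-binding chain falling and the signalling chain rising. Ifngr1, which binds interferon gamma and carries JAK1, is encoded at 19591949 to 19610229 on chromosome 10, plus strand. It was at 22.3, 24.5 and 22.9 FPKM in the vehicle libraries and at 11.1, 12.6 and 14.8 FPKM in nanoparticle libraries 1 to 3. All nanoparticle libraries lay below all vehicle libraries, and library 1 was the lowest. Ifngr1 fell by 0.81 on the log2 scale (SE 0.125, limma adjusted p = 0.0039), to 0.553 times the vehicle mean.

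Ifngr2, the chain that carries JAK2, is encoded at 91547072 to 91565623 on chromosome 16, plus strand. It was at 23.2, 23.5 and 24.6 FPKM in the vehicle libraries and at 41.8, 45.3 and 44.2 FPKM in nanoparticle libraries 1 to 3, again without overlap. The log2 change was 0.85 (SE 0.0936, limma adjusted p = 0.0011, 1.84 times the vehicle mean). Its spread was small in both groups, with an SD of 0.768 FPKM in the vehicle group and 1.78 FPKM in the nanoparticle group.

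Among the kinases, Jak2 rose and the other two did not pass. Jak2, the kinase of IFNGR2 and of receptors for growth factors such as GM-CSF, is encoded at 29251828 to 29313080 on chromosome 19, plus strand. It was at 32.3, 38.2 and 38.3 FPKM in the vehicle libraries and at 100.9, 68.7 and 63.5 FPKM in nanoparticle libraries 1 to 3. The groups did not overlap, and nanoparticle library 1 was the highest. The log2 change was 1.05 (SE 0.196, limma adjusted p = 0.0081), and 0.85 without nanoparticle library 1 (limma adjusted p = 2.8e-04).

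Jak1, shared by both interferon receptors and by many cytokine receptors, is encoded at 101152367 to 101265282 on chromosome 4, minus strand. It was at 33.8, 31.8 and 33.5 FPKM in the vehicle libraries and at 54.6, 32.3 and 30.6 FPKM in nanoparticle libraries 1 to 3. Nanoparticle library 1 alone lay above the vehicle libraries, library 2 lay among them and library 3 below them. The log2 change was 0.19 (95% interval -0.36 to 0.74, limma adjusted p = 0.566), and -0.07 without nanoparticle library 1. Tyk2, the kinase of IFNAR1, is encoded at 21104068 to 21131243 on chromosome 9, minus strand. It was at 12.0, 14.3 and 13.2 FPKM in the vehicle libraries and at 17.2, 15.3 and 11.4 FPKM in nanoparticle libraries 1 to 3, with overlapping groups. The log2 change of Tyk2 was 0.13 (95% interval -0.27 to 0.52, limma adjusted p = 0.588). Tyk2 shares 554 exonic bases with the antisense gene 1700084C06Rik, which the table does not list, and as the strand of the libraries is not stated, reads from these bases cannot be told apart. With 3 libraries per group, these intervals leave room for a change of either gene in either direction. With libraries scaled to equal read totals, which puts the median over the tested genes at -0.28, Jak1 and Tyk2 had log2 changes of -0.15 and -0.19 (limma adjusted p = 0.646 and 0.411), and the 5 called genes stayed called in the same direction. Under that scaling 44.2% of tested genes passed, 10.4% higher and 33.8% lower.

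**Figure D2:**
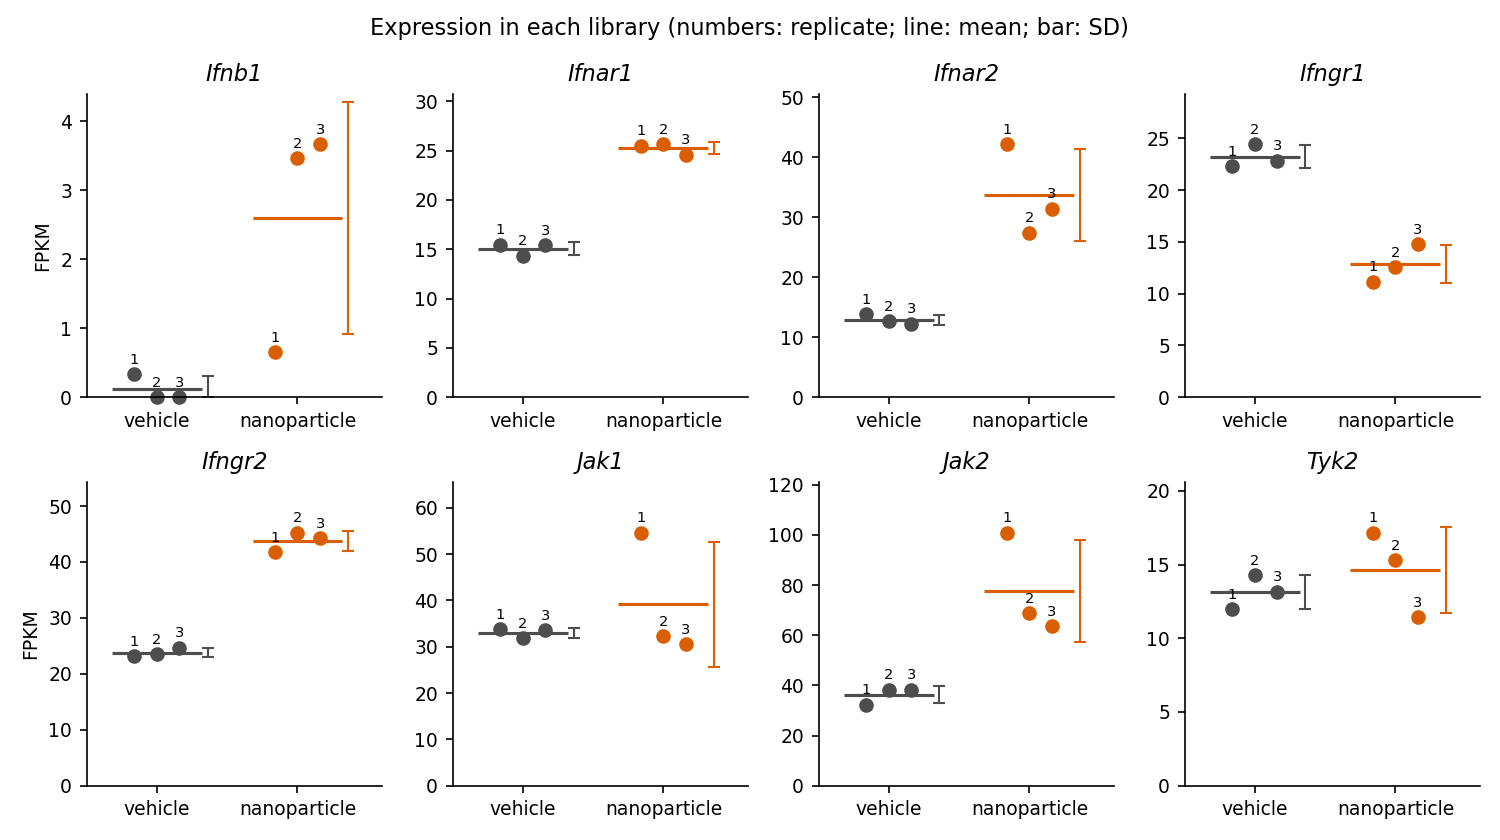
FPKM of the 8 genes in each library (points, numbered by replicate), with the group mean (line) and SD (bar, its lower end stopped at 0 for Ifnb1), vertical axes starting at 0. The groups do not overlap for Ifnb1, Ifnar1, Ifnar2, Ifngr1, Ifngr2 and Jak2 and overlap for Jak1 and Tyk2.

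Nanoparticle library 1 was the highest of its group for Ifnar2, Jak1, Jak2 and Tyk2, the lowest for Ifnb1, Ifngr1 and Ifngr2, and in the middle for Ifnar1. Across the tested genes it was the highest in 42.3% and the lowest in 46.3%. It was 1.74 times the mean of libraries 2 and 3 for Jak1, 1.53 times for Jak2 and 1.43 times for Ifnar2, and 0.183 times for Ifnb1. Ifnar1 and Ifngr2 varied least among the nanoparticle libraries, with library 1 at 1.01 and 0.934 times that mean.

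**Figure D3:**
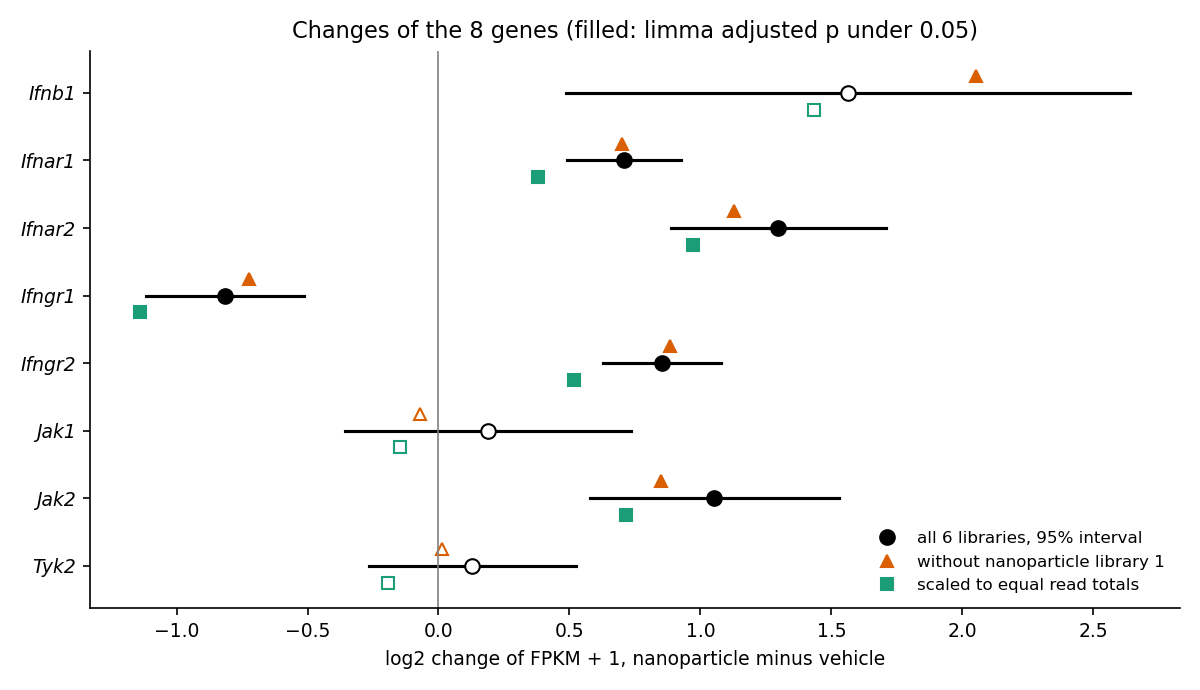
Log2 change of FPKM + 1 with nanoparticles for the 8 genes: black circles, all 6 libraries with 95% intervals (Ifnb1 from the fit with no filter); triangles, without nanoparticle library 1; squares, libraries scaled to equal read totals; filled symbols passed a limma adjusted p of 0.05. Ifnar1, Ifnar2, Ifngr2 and Jak2 were above 0 and Ifngr1 below 0 in all 3 settings, while Jak1 and Tyk2 did not pass in any, and the sign of both differed between the settings.

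Within the vehicle group, the order of mean levels from high to low was Jak2 (36.3 FPKM), Jak1 (33.04 FPKM), Ifngr2 (23.8 FPKM), Ifngr1 (23.2 FPKM), Ifnar1 (15.1 FPKM), Tyk2 (13.1 FPKM), Ifnar2 (12.9 FPKM) and Ifnb1 (0.112 FPKM). Libraries overlapped between the neighbours Jak2 and Jak1, Ifngr2 and Ifngr1, and Tyk2 and Ifnar2. With nanoparticles the order was Jak2 (77.7 FPKM), Ifngr2 (43.8 FPKM), Jak1 (39.1 FPKM), Ifnar2 (33.7 FPKM), Ifnar1 (25.2 FPKM), Tyk2 (14.6 FPKM), Ifngr1 (12.8 FPKM) and Ifnb1 (2.60 FPKM). There the overlapping neighbours were Ifngr2 and Jak1, Jak1 and Ifnar2, and Tyk2 and Ifngr1. Ifngr1 thus moved below Ifnar1 and Ifnar2, and Ifnar2 moved above Ifnar1 and Tyk2. Among the tested genes, Ifngr1 went from the 83.3 to the 68.6 percentile of mean level and Ifnar2 from the 71.6 to the 85.5 percentile.

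Ratios of paired chains within a library do not depend on the scaling between libraries. Ifngr1 and Ifngr2 were nearly equal in vehicle, with Ifngr1 at 0.963, 1.04 and 0.928 times Ifngr2 in libraries 1 to 3. With nanoparticles Ifngr1 was at 0.267, 0.278 and 0.335 times Ifngr2, so all 3 libraries lay below every vehicle library. The mean log2 ratio went from -0.03 ± 0.0848 to -1.78 ± 0.175, a difference of -1.74 (exact permutation test, two-sided, p = 0.1, adjusted p = 0.133 over 4 ratios). With 3 libraries against 3, a p of 0.1 is the smallest this test can give.

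Ifnar1 was at 1.12, 1.13 and 1.26 times Ifnar2 in the vehicle libraries and at 0.604, 0.936 and 0.783 times in nanoparticle libraries 1 to 3. The ratio was thus above 1 in all vehicle libraries and below 1 in all nanoparticle libraries. The difference in log2 ratio was -0.62 (exact permutation p = 0.1, adjusted p = 0.133), and -0.45 without nanoparticle library 1. Where such a ratio crosses 1 depends on the exon lengths used, and RNA levels do not show which receptor chain is in excess. Jak2 was at 0.955, 1.20 and 1.14 times Jak1 in vehicle and at 1.85, 2.13 and 2.08 times with nanoparticles, a difference in log2 ratio of 0.88 without overlap (exact permutation p = 0.1, adjusted p = 0.133). This ratio was the smallest of the group in nanoparticle library 1, although the levels of both kinases were highest there. Tyk2 was at 0.354, 0.450 and 0.393 times Jak1 in vehicle and at 0.314, 0.474 and 0.374 times with nanoparticles, where the groups overlapped (exact permutation p = 0.9, adjusted p = 0.9). Of the summed FPKM of the 3 kinases, Jak2 made up 41.4% to 45.4% in vehicle and 58.4% to 60.2% with nanoparticles.

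**Figure D4:**
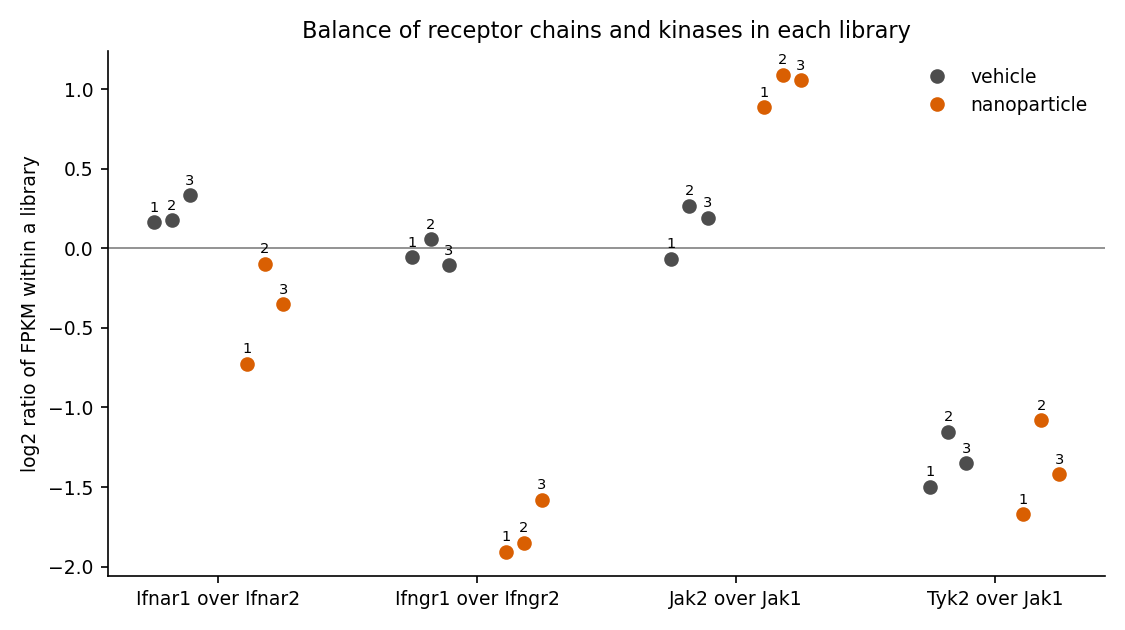
Log2 ratio of FPKM between paired genes within each library (points, numbered by replicate), vehicle in grey and nanoparticle in orange; 0 means equal levels. The ratio of Ifngr1 to Ifngr2 lies near 0 in vehicle and between -1.91 and -1.58 with nanoparticles, and the ratio of Tyk2 to Jak1 overlaps between the groups.

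Ifnar2, Ifnar1 and Ifngr2 share a position as well as a direction. They lie on the plus strand of chromosome 16 within 193 kb, together with Il10rb, the second chain of the receptors for interleukin 10 and interferon lambda. GENCODE lists 12 genes in this span, the table holds 8 of them, and 4 passed the filter. The 4 were these receptor genes, Il10rb included, and all of them were called higher, where 17.0% of tested genes were. All but Il10rb had already been counted above as called. Il10rb went from 18.0 ± 0.686 to 31.2 ± 1.61 FPKM (log2 change 0.76, limma adjusted p = 0.0017). The other 4 genes of the table in this span, noncoding RNA genes and pseudogenes, reached at most 0.541 FPKM in any library. Ifngr1, the chain that fell, lies outside this cluster on chromosome 10.

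Other interferon genes were at or near the limit of detection. Of 20 listed ligands (interferon alpha subtypes, epsilon, kappa, zeta, gamma and lambda), 15 were not in the table and 5 were, none of which passed the filter. Ifna4 had 0 reads in the vehicle libraries and 0, 6 and 8 reads in nanoparticle libraries 1 to 3. Ifna5 had 0 reads in vehicle and 3, 0 and 4 reads with nanoparticles, and Ifna9 had 6 reads in nanoparticle library 3 alone. Ifna2 and Ifnk had at most 4 reads in any library. Interferon alpha genes are near-identical copies, so reads could be split between them or lost, and these values are uncertain.

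Stat2 and Irf9 belong to interferon-stimulated gene factor 3, the complex that carries the signal of the type I receptor to the nucleus, and both rose. Stat2 was at 11.6, 11.2 and 11.5 FPKM in vehicle and at 78.5, 41.6 and 37.1 FPKM in nanoparticle libraries 1 to 3 (log2 change 2.02, limma adjusted p = 0.0025). Irf9 was at 6.29 to 6.38 FPKM in vehicle and at 18.6 to 22.3 FPKM with nanoparticles (log2 change 1.55, limma adjusted p = 1.8e-04). Thus Stat2 was highest in nanoparticle library 1, the library of its group with the fewest Ifnb1 reads. Irf7, an inducible factor of interferon gene transcription named after its values were seen, was also highest there, with 366, 106 and 124 FPKM in nanoparticle libraries 1 to 3 and at most 2.10 FPKM in vehicle (log2 change 5.83, limma adjusted p = 3.3e-04).

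A list of 27 genes of interferon beta induction held sensors of nucleic acid or bacterial products, their adaptors and kinases, and transcription factors. All 27 passed the filter, and 16 rose and 2 fell, against 17.0% and 16.2% of all tested genes, with a median log2 change of 0.85. The 3 with the smallest adjusted p were Zbp1, Dhx58 and Irf1. Zbp1, a sensor of Z-form nucleic acid, went from 4.50 ± 0.369 to 85.4 ± 9.75 FPKM, and Dhx58, a RIG-I-like receptor, from 3.93 ± 0.456 to 40.9 ± 2.90 FPKM. Irf1, a transcription factor, went from 5.58 ± 0.0736 to 35.4 ± 2.75 FPKM (log2 change 2.46, limma adjusted p = 3.9e-05). The 2 that fell, named after their values were seen, were Tlr9, a receptor for unmethylated DNA (log2 change -1.05, limma adjusted p = 0.0031), and Mavs, the adaptor of RIG-I-like receptors (log2 change -0.36, limma adjusted p = 0.0335). With read-total scaling 14 rose and 4 fell (10.4% and 33.8% of tested genes), and without nanoparticle library 1 the counts were 18 and 3 (34.3% and 30.5% of tested genes).

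Of 16 brakes of interferon receptor signalling, 6 rose, 1 fell and 9 did not pass (median log2 change 0.21), where 17.0% of tested genes were higher and 16.2% lower. Usp18, which binds IFNAR2 and displaces JAK1, went from 5.64 ± 0.862 to 177 ± 50.3 FPKM (log2 change 4.72, limma adjusted p = 7.1e-05). Socs1, which binds and inhibits Janus kinases, went from 17.02 ± 0.479 to 87.5 ± 20.03 FPKM and Socs3, a related inhibitor, from 39.2 ± 1.79 to 206 ± 54.7 FPKM. Sh2b3, an adaptor that restrains JAK2 and named after its value was seen, was the one that fell (log2 change -0.51, limma adjusted p = 0.0049). Without nanoparticle library 1, 8 brakes rose and 6 fell, where 34.3% and 30.5% of tested genes did. With read-total scaling 5 rose and 6 fell, where 10.4% and 33.8% of tested genes did, and the median log2 change was -0.07. In both settings the share of brakes that fell was close to that of all tested genes.

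Of 22 genes for other receptors that use these kinases, together with Jak3, 18 passed the filter, of which 7 rose, 2 fell and 9 did not pass (median log2 change 0.43), against 17.0% higher and 16.2% lower over all tested genes. Without nanoparticle library 1, 10 rose and 3 fell, against 34.3% and 30.5%. Il2rg, the common gamma chain, went from 42.3 ± 1.24 to 84.6 ± 2.60 FPKM (log2 change 0.98, limma adjusted p = 7.3e-04). Il3ra, the interleukin 3 receptor chain, had a log2 change of 0.96 (limma adjusted p = 0.0016), and Csf3r, the receptor for granulocyte colony-stimulating factor, of 1.71 (limma adjusted p = 2.3e-04). The 2 that fell, named after their values were seen, were the interleukin 6 receptor chains Il6st (11.7 ± 0.214 to 6.18 ± 1.29 FPKM) and Il6ra (2.26 ± 0.186 to 0.851 ± 0.206 FPKM). Csf3r is also 1 of 12 neutrophil markers, of which 4 passed the filter. Csf3r and S100a8 rose (S100a8 from 33.4 to 35.96 FPKM in vehicle to 50.1 to 109 FPKM, log2 change 1.16, limma adjusted p = 0.0216), Mmp8 fell (log2 change -0.90, limma adjusted p = 0.0017) and S100a9 did not pass (log2 change 1.47, limma adjusted p = 0.246). The summed level of the list, 266 to 299 FPKM in vehicle and 185 to 257 FPKM with nanoparticles, was mostly Mmp8. Ngp and Camp were below 1 FPKM in vehicle and above 1 FPKM in nanoparticle libraries 2 and 3. In nanoparticle library 1 Ngp was at 0.0501 FPKM, below its vehicle range of 0.246 to 0.901 FPKM, and Camp was at 0.242 FPKM. Cxcr2 was lower with nanoparticles (0.395 to 0.801 FPKM in vehicle, 0 to 0.139 FPKM with nanoparticles). Ltf and Ly6g overlapped between the groups, and Elane, Mpo and Retnlg were at most 0.307, 0.0537 and 0.207 FPKM in any library. The part of neutrophil genes in the Csf3r result was not tested.

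**Figure D5:**
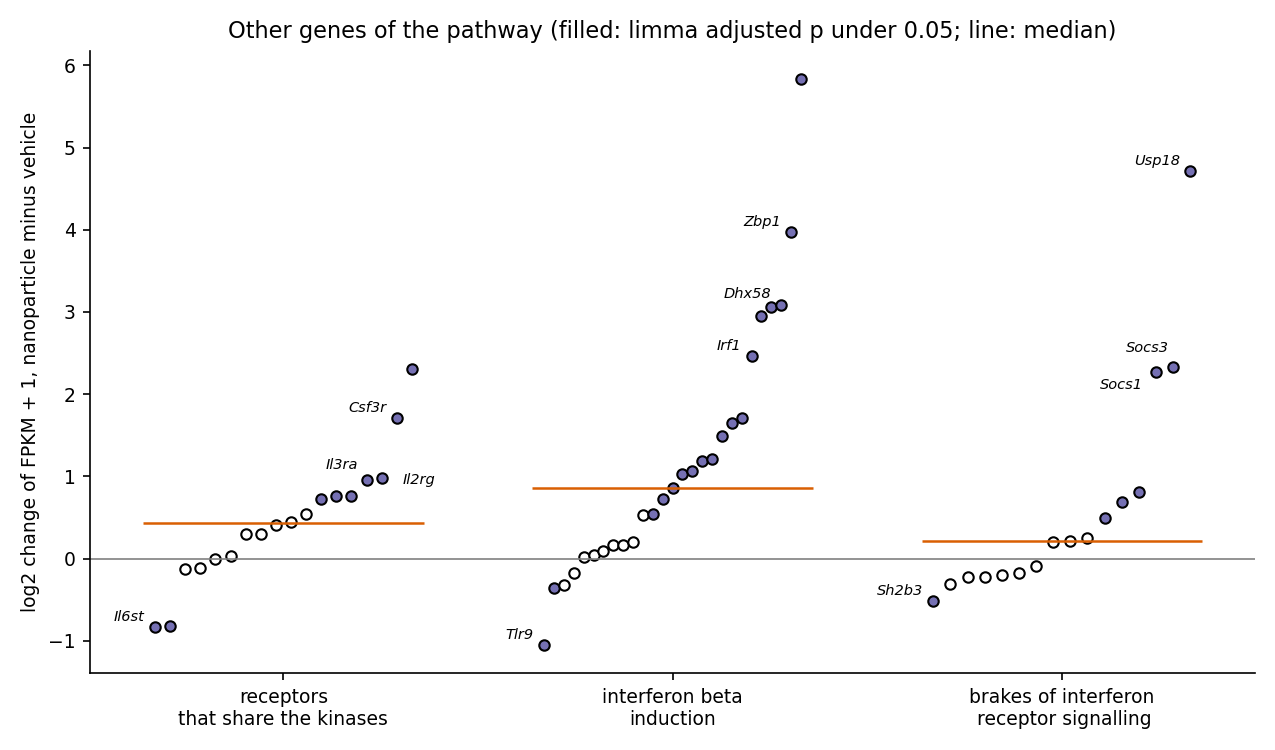
Log2 change of FPKM + 1 with nanoparticles for each gene of 3 pathway lists that passed the filter (points in order of change), filled where the limma adjusted p was under 0.05, with the list median (orange line). Each list held rising, falling and uncalled genes.

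Marker levels of other cell types are given for the same libraries, with single markers chosen after their values were seen. The summed level of the 12 dendritic cell markers was 5404 to 5814 FPKM in vehicle and 3177, 6426 and 6968 FPKM in nanoparticle libraries 1 to 3, most of it Cd74. Of the 10 dendritic cell markers that passed the filter, Zbtb46, Cd209a, Clec10a and Clec9a fell (log2 changes of -0.60, -2.70, -2.15 and -0.97). Ccr7, the receptor of migrating dendritic cells, rose (log2 change 5.11, limma adjusted p = 1.8e-05). Below the filter, Xcr1 was higher, at 0.0902 to 0.181 FPKM in vehicle and 2.21, 0.828 and 0.711 FPKM in nanoparticle libraries 1 to 3. Flt3 was also higher, but at most 0.0793 FPKM. The 11 macrophage markers reported summed to 1125 to 1252 FPKM in vehicle and to 1042 to 1234 FPKM with nanoparticles, and of the 10 that passed the filter 3 rose (Adgre1, Fcgr1 and Cd68) and 4 fell (Mrc1, C1qa, C1qb and C1qc). Of the 8 mast cell and basophil markers, 7 were in the table, with a summed level of 3.93 to 6.16 FPKM in vehicle and 10.3 to 26.1 FPKM with nanoparticles, the highest in library 1. Most of that rise was Hdc (0.196 to 0.474 FPKM in vehicle and 24.1, 6.69 and 6.76 FPKM in nanoparticle libraries 1 to 3, log2 change 3.10, limma adjusted p = 0.0035), while Gata2 fell (log2 change -0.76, limma adjusted p = 0.0190), Cpa3 and Kit did not pass, and Mcpt8, Ms4a2 and Prss34 were at most 0.249 FPKM. The 5 stromal markers in the table summed to at most 0.0639 FPKM in vehicle and to 0.923 to 3.82 FPKM with nanoparticles, most of it Pdgfrb and Dcn, with Col1a1 and Col1a2 at most 0.00933 FPKM. T, NK and B cell markers summed to at most 0.449 FPKM in any library, and these cells are the usual source of interferon gamma. The part of these markers in the results for the 8 genes was not tested.

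Genes with the profile nearest to that of each of the 8 were found by the root mean square difference of log2(FPKM + 1) over the 6 libraries, after each gene was centred on its own mean. For Ifnb1 the 5 nearest of 10682 genes were Serpinb6b (0.166), Atp1b1 (0.168), H1fx (0.198), Rab38 (0.207) and Sap30 (0.216), where the median gene was at 0.960. In each of them nanoparticle library 1 lay between the vehicle libraries and nanoparticle libraries 2 and 3, which follows from their choice by likeness to Ifnb1. Serpinb6b, a serpin, was at 4.28 to 5.92 FPKM in vehicle and 10.04, 29.5 and 24.1 FPKM in nanoparticle libraries 1 to 3. The nearest to Ifnar1 was Atg10 (0.0359), to Ifnar2 Pla2g16 (0.0608), to Ifngr1 Pwwp2b (0.0539) and to Ifngr2 Rap1b (0.0317). The nearest to Jak1 was Ankfy1 (0.0177), to Jak2 Lztfl1 (0.0775) and to Tyk2 Gm9833 (0.0555). Among the 8 genes themselves the nearest pair was Ifnar1 and Ifngr2 (0.0902), followed by Jak1 and Tyk2 (0.195) and by Ifnar2 and Jak2 (0.199).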

How the data were processed

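RNA-seq libraries of dendritic cells (3 vehicle, 3 nanoparticle, grouped by their labels) were analysed. The authors deposited 2 tables of 23398 genes with identical values (140388 each). The values deposited by the authors were made by dividing read counts by exon length and a library scale, and are FPKM; this unit was inferred from the values, because neither the file headers nor the labels name it. Per the submitters' processing notes, CASAVA, STAR 2.5, HTSeq, edgeR 3.16.5, DESeq2 and the builds hg19 and mm10 were named, without roles. Multiplied by merged exon lengths of GENCODE M21 and 1 scale per library, between 95.7% and 96.0% of non-zero values per library came within 0.01 of a whole read. The scales followed median-of-ratios size factors to within 0.0144%, which centre the typical gene on no change, and did not follow library totals. All 8 genes gave whole reads in every library. For a library with 0 reads, 3 reads were taken as the upper limit, which covers counting error only.

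The 10682 genes that reached 1 FPKM in 3 or more libraries were compared on log2(FPKM + 1) with limma 3.58.1 in R 4.3.3 (lmFit, eBayes with trend, Benjamini-Hochberg over all tested genes, threshold 0.05). This scale understates changes of low genes. Ifnb1 missed the filter and was taken from the fit over all 23398 genes. Ratios within libraries were compared by exact permutation (scipy 1.17.1). Named genes are the 8 genes, the genes of interferon-stimulated gene factor 3, up to 3 called genes with the smallest adjusted p of each other list, and the genes with the nearest profiles. A few genes of the lists are not reported here. The members and lists were chosen with earlier results of these data known. The main limma fit was also run on simulated reads, with the same dispersion for every gene and no library that stood apart. That setting differs from these data, so the run does not bear on the p-values given here. Alternatives covered pseudocount, filter, scaling, trend, replicate block, limma-voom on recovered reads, and each library left out.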

Additional observations from a re-analysis of the deposited data

How the results depend on the processing

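Ifnar1, Ifnar2, Ifngr1, Ifngr2 and Jak2 kept their direction and their limma call under every alternative run. Ifnb1 passed with a pseudocount of 0.1 (log2 change 3.73, limma adjusted p = 0.0379) and without nanoparticle library 1. It did not pass under limma-voom on recovered reads, an alternative chosen after seeing the data (log2 change 4.87, limma adjusted p = 0.0566), and over the fits that left out 1 library its log2 change ran from 1.30 to 2.05 and its limma adjusted p from 0.0036 to 0.251. Scaling to equal read totals turned Jak1 and Tyk2 to -0.15 and -0.19. Leaving out 1 library gave -0.07 to 0.34 for Jak1, which was -0.0706 without nanoparticle library 1. For the log2 ratio of Tyk2 to Jak1 it gave -0.21 to 0.08, with 0.0847 without nanoparticle library 1 and 0.03 without vehicle library 2. The cause was not tested.

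The count of called genes was 3550, of which 1817 were higher and 1733 lower. It ran from 2141 to 6923 over the fits that left out 1 library (1114 to 3660 higher, 1027 to 3263 lower), with the highest without nanoparticle library 1 and the lowest without vehicle library 3; it was 2226 and 2188 without vehicle libraries 1 and 2. With scaling to equal read totals 1108 genes were higher and 3613 lower, because that scaling moves the median of the tested genes to -0.28. At least 5 FPKM in 3 libraries left 975 lower genes, with fewer genes tested. The read-total scaling, applied to the lists as an alternative added after seeing the data, gave 4 lower genes in the induction list and 6 lower brakes, and without nanoparticle library 1 there were 6 lower brakes.

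Replicate numbers are shared between the groups. The deviations of same-numbered libraries correlated at 0.0654, 0.113 and -0.0577 for replicates 1, 2 and 3, so the numbers were not taken as pairs. The vehicle library that correlated best was library 1 for nanoparticle library 1, and library 2 for nanoparticle libraries 2 and 3. With 3 libraries per group, these correlations cannot exclude a pairing. With the replicate block 2785 genes were called, Ifnb1 had a limma adjusted p of 0.157, and the calls of the other 7 genes stayed as given.

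With 5 reads in the vehicle group, counting error alone leaves the Ifnb1 ratio uncertain by several fold, and genes at a few reads, such as the interferon alpha genes, cannot be compared at this depth. A stricter filter of 5 FPKM leaves no Ifnb1 value.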
